A study of Mus musculus with 4 samples.

Results

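The cells described here are thymic regulatory T (Treg) cells rich in transcripts of Gpr83, Il2rb, Il2ra and Socs2. They were chosen from single-cell 3' RNA counts as cells with 5 or more unique molecular identifiers (UMIs, each standing for 1 captured RNA molecule) summed over Socs2, Gpr83, Il2ra, Il2rb and Osm, called the selection set. They also had fewer than 4 UMIs over Nr4a2, Nr4a3, Egr2, Irf4, Cd83, Nfkbid and Gadd45b, called the activation set, and were listed in the authors' table of G1 cells. The rule found 1114 members among 7231 cells of the G1 table (15.4%), out of 8273 cells in the count table. The members were set against 4154 low cells, which are G1-table cells with 0 or 1 UMIs of the selection set. Because measured values chose the members, the levels of the 12 rule genes are a description and support nothing.

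Per the labels, the samples were thymic Treg cells of 3-week-old B6 mice that carried the Rag2-Gfp and Foxp3-Thy1a reporters, sorted as CD4+CD8-Thy1.1+GFP+. There was 1 sample of each strain: IL2 o/o (knockout) and IL15 o/o (knockout), and their counterparts IL2 wt/wt and IL15 wt/wt. The reporters limit the sort to cells that carry the Foxp3-linked surface mark and still hold GFP from Rag2 activity, so recently formed cells. The study asked what IL-2 and IL-15 each contribute to how Treg cells form, are selected and mature. The suffix of a cell barcode, from 1 to 4, is read here as its library. No label ties a suffix to a strain, so the libraries are unassigned, no genotype was compared and none was inferred. Cells of 1 library are not replicates, so no test between conditions was possible, and intervals cover counting error only.

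IL-2 binds a receptor made of the alpha chain (Il2ra, CD25), the beta chain (Il2rb) and the common gamma chain (Il2rg). The alpha chain raises the affinity, and the beta and gamma chains signal through JAK1 and JAK3 to the transcription factor STAT5. STAT5 induces, among others, the feedback inhibitors Cish, Socs1, Socs2 and Socs3 and the survival gene Bcl2, and in Treg cells it sustains Foxp3 and Il2ra. In the thymus, IL-2 and IL-15 act on Treg precursors that have received a strong T cell receptor (TCR) signal. Gpr83 is a G protein-coupled receptor that Treg cells express at a high level, and Osm encodes the cytokine oncostatin M, itself a STAT5-induced gene.

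Library 3 stood apart. It held 32 members among 1784 G1-table cells, a share of 1.79% (exact Clopper-Pearson 95% interval 1.23 to 2.52%). The share was 21.4% (19.3 to 23.6%) in library 1, with 299 members, 22.9% (21.1 to 24.8%) in library 2, with 483, and 15.4% (13.9 to 17.1%) in library 4, with 300. Depth moves with membership: the median was 4498 UMIs per member and 2656.5 per low cell, and library 3 had the lowest median over its G1-table cells, 2591.5 UMIs, against 3016 to 3848 in the other 3. With every cell thinned to 1886 UMIs, which left out 723 cells, 4.46% of cells passed the rule. The thinned shares were 5.74, 6.53, 0.675 and 4.33% in libraries 1 to 4, so library 3 was again the lowest. Mitochondrial transcripts made up 2.30% of members' UMIs and 2.28% of those of low cells, and ribosomal protein transcripts 32.7% and 30.5%. The 4 libraries shared 27 cell barcodes, and 6 members carried one of these.

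**Figure D1:**
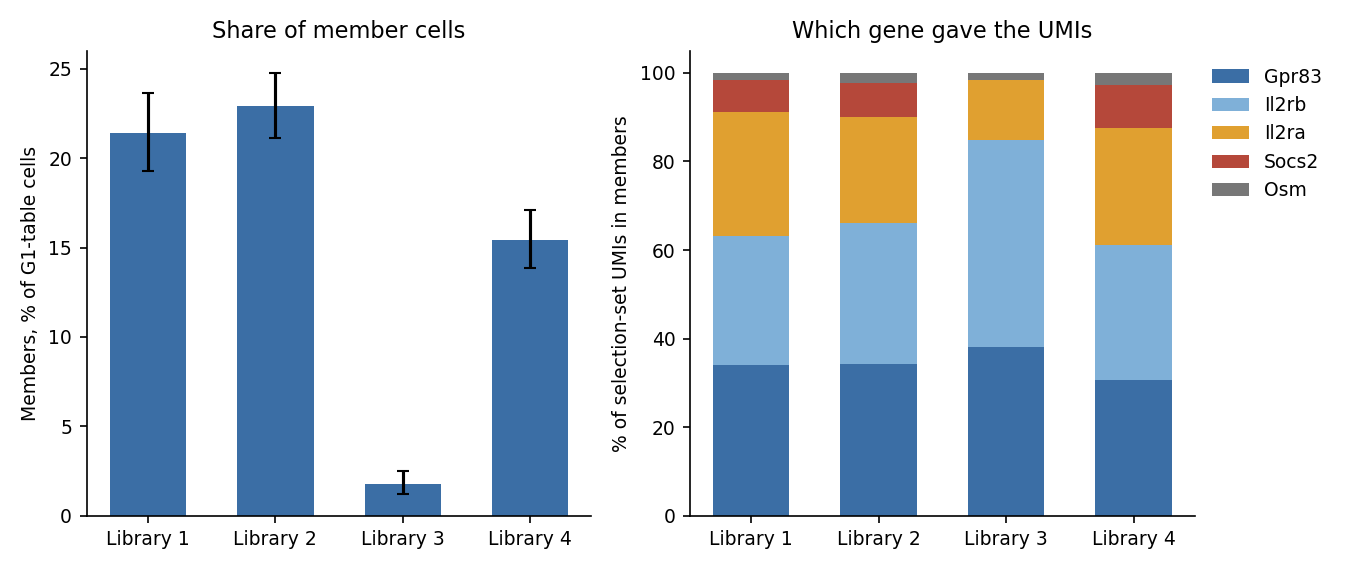
Left, members as a percentage of G1-table cells in each library, with exact 95% binomial intervals; right, the percentage of the members' selection-set UMIs that each of the 5 genes gave in each library. Library 3 has the lowest share, 1.79%, and no Socs2 segment.

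Gpr83 gave the largest part of the members' selection-set UMIs, 33.4%, followed by Il2rb with 31.1%, Il2ra with 25.5%, Socs2 with 7.90% and Osm with 2.18%. A Socs2 UMI was seen in 34.6% of members, so most members were chosen with none. Il2rb was seen in 85.2% of members, Gpr83 in 80.3%, Il2ra in 77.1% and Osm in 14.2%. Of the members, 39 had UMIs of only 1 of the 5 genes, 319 of 2, 478 of 3, 254 of 4 and 24 of all 5. Gpr83 led in 377 members, Il2rb in 304, Il2ra in 224, Socs2 in 35 and Osm in 2, and 172 were ties. At the limit of the rule, 288 members had exactly 5 selection-set UMIs, and 372 cells with 4 lay just outside. On the other side, 42 members had 3 activation-set UMIs, and 24 cells with 4 were left out.

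Socs2 (chromosome 10, 95385362 to 95417180, minus strand, GRCm38), a feedback inhibitor of cytokine receptors, stood at 106, 116, 0 and 145 counts per 1000000 UMIs (CPM) in the members of libraries 1 to 4. In low cells it stood at 0.839, 2.85, 0.735 and 3.94 CPM. The 0 in library 3 comes from 125109 UMIs, which allows a level of up to 24.0 CPM (3 counts), below the other 3 libraries. Over all G1-table cells, Socs2 was at 0.961 CPM in library 3 and at 35.2 to 48.5 CPM in the others. The Socs2-rich label of these cells therefore does not hold in library 3.

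Gpr83 (chromosome 9, 14860210 to 14870789, plus strand) was at 499, 514, 607 and 461 CPM in the members of libraries 1 to 4 and at 28.9, 27.6, 26.2 and 23.1 CPM in low cells. Il2rb (chromosome 15, 78479256 to 78495271, minus strand) was at 426, 479, 743 and 458 CPM in members and at 42.8, 48.2, 57.6 and 44.3 CPM in low cells. Il2ra (chromosome 2, 11642807 to 11693193, plus strand) was at 411, 359, 216 and 397 CPM in members and at 22.6, 25.3, 11 and 33.4 CPM in low cells. The members of library 3 were thus highest in Il2rb and lowest in Il2ra, which was seen in 50% of them. Their Gpr83 level had a counting interval of 479 to 760 CPM, which holds the levels of libraries 1 and 2. Over all G1-table cells, library 3 was the lowest in Gpr83, at 80.4 CPM, and in Il2rb, at 131 CPM. Osm was at 22.6, 34.6, 24.0 and 40.9 CPM in members and at 8.39, 4.44, 8.82 and 9.71 CPM in low cells.

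The promoter windows of 3 genes that encode STAT5-induced products, and whose values follow, are shown because the STAT motif TTCNNNGAA, its own reverse complement, occurs in each. The windows run from 250 bases before to 50 after a RefSeq start site (GRCm38.p6), the motif is in capitals, and each is written 5' to 3' on the gene's strand. They lie at chr9:107296409-107296708 (plus strand) for Cish, chr17:35205302-35205601 (minus strand) for Lta and chr11:117969317-117969616 (minus strand) for Socs3.
Cish: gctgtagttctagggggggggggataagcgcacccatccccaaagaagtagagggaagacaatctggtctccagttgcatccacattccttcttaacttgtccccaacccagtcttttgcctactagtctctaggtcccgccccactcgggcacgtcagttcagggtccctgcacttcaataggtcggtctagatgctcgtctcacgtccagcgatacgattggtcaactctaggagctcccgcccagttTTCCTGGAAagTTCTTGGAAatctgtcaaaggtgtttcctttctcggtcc
Lta: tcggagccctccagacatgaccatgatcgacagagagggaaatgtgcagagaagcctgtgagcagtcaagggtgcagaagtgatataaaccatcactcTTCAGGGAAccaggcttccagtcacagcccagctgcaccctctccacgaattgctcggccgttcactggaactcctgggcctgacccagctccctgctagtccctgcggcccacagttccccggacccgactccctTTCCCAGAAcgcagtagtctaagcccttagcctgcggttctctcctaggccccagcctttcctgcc
Socs3: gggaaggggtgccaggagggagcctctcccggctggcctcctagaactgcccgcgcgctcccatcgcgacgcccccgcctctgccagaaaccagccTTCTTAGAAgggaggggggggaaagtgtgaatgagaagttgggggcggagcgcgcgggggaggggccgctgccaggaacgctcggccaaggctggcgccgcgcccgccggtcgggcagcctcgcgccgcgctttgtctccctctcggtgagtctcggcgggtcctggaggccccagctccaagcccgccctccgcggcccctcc
The Cish window holds TTCCTGGAA from position 1 and TTCTTGGAA from position 12, counted from the start site. The Lta window holds TTCAGGGAA at -152 and TTCCCAGAA at -16, and the Socs3 window TTCTTAGAA at -154. Of 32851 windows in the table, 8.30% hold the motif. At least 1 window with it was found for 14 of the 100 genes called higher that have a window (14%), for 14 of 112 called lower (12.5%) and for 439 of 5269 tested genes (8.33%). The windows of Gpr83, Il2ra, Socs1, Pim1 and Bcl2 hold no match to it. A match is a description of letters, not of binding.

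For every other gene, the members' UMIs were compared with the number expected from low cells of the same library and the same depth bin, which used 1091 members and 4045 low cells. The levels below are CPM in members and CPM in low cells weighted to the members' depth. A gene was called when it had at least 200 UMIs, a ratio of at least 1.5 and an interval that left out equality, and moved the same way in each library. Of 6566 genes, 122 were called higher (1.86%) and 148 lower (2.25%), and the median log2 ratio of all tested genes was -0.03. Without library 3, 154 were called higher and 154 lower, among them 112 of the 122 and 116 of the 148. Library 3 had 32 members, so a scarce gene could meet the direction there on few UMIs or none. Matched by library alone, 59 of the 122 and 43 of the 148 were called the same way. Low cells were not held to the activation limit as members were. With low cells under that limit too, 105 of the 122 and 102 of the 148 were called the same way. Among cells of 1 sort, a whole-cell change and a change in the make-up of the RNA cannot be told apart.

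**Figure D2:**
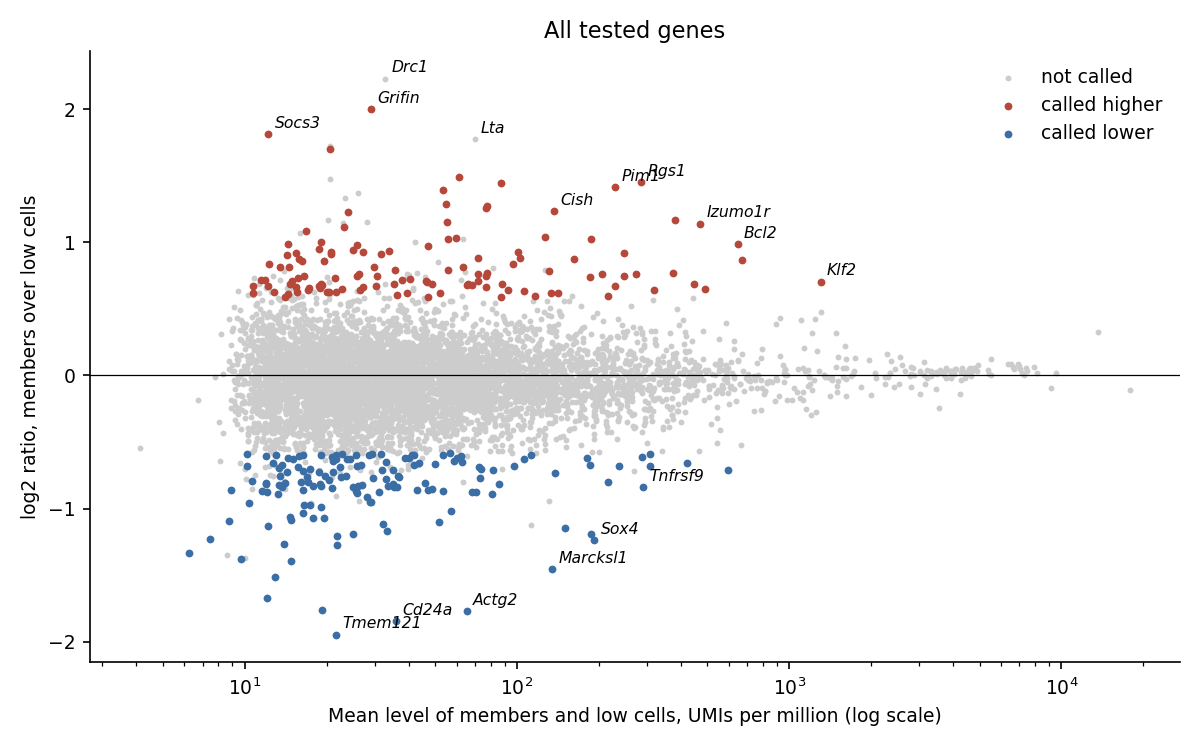
Each point is 1 of the 6566 tested genes, with its mean level in CPM on a log axis and its log2 ratio of members over depth-matched low cells; red points were called higher and blue points lower. Grifin at 2.0 and Tmem121 at -1.95 are the outermost called genes, and Drc1 and Lta lie among the highest without a call because library 3 went the other way.

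Targets of IL-2 and STAT5, led by the inhibitors Cish, Socs1 and Socs3 and by Pim1 and Bcl2, gave 9 genes called higher and 0 lower of 20 tested. The list's median log2 ratio was 0.58, against -0.03 over all tested genes. Without library 3, 8 of 18 were called higher and 0 lower, with a median of 0.43. Its median within libraries 1 to 4 was 0.39, 0.52, 0.57 and 0.48. The rule chose on 2 chains of the IL-2 receptor and on Socs2 and Osm, themselves STAT5-induced, so this count is a description of the choice.

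Cish, a STAT5-induced inhibitor of IL-2 receptor signalling (chromosome 9, 107296026 to 107302784), was at 192, 194, 211 and 187 CPM in the members of libraries 1 to 4, against 67.9, 93.4, 48.7 and 77.6 CPM in low cells. The library values of members and low cells did not overlap, and the log2 ratio was 1.24 (95% counting interval 1.07 to 1.4). A called gene had to move the same way in each library. The share of all tested genes without such overlap was not counted, here or for the genes below. The lack of overlap is thus only a description of called genes. Socs1, which blocks JAK kinases, was at 96.5, 139, 147 and 160 CPM in members, against 51.6, 68.2, 67.6 and 92.1 CPM in low cells. Its log2 ratio was 0.93 (0.75 to 1.11), and every member value lay above every low-cell value. Socs3, the related inhibitor of gp130 receptors, was at 15.6, 16.1, 18.4 and 28.4 CPM, against 2.88, 7.12, 11.4 and 4.35 CPM. Its log2 ratio was 1.81 (1.26 to 2.36). Socs3 is scarce, with 227 UMIs over all compared cells, and falls under the 200 UMI limit when any library is left out.

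Pim1, a STAT5-induced survival kinase, was at 317, 323, 147 and 383 CPM in members, against 106, 134, 120 and 128 CPM in low cells. Its log2 ratio was 1.41 (1.28 to 1.55), with library 3 at 0.29. Bcl2, which keeps mitochondria intact against death signals, was at 853, 839, 1047 and 885 CPM in members, against 383, 462, 455 and 433 CPM in low cells. The ratio was 0.99 (0.92 to 1.06), and the members of library 3 had the highest level. Myc (0.69), Il4ra (0.71), Furin (0.82) and Capg (0.74) were the other members of the list called higher. Ltb (0.48) and Ccnd2 (0.39) had intervals above 0 and ratios under 1.5.

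Lta, which encodes lymphotoxin alpha, was at 120, 103, 0 and 114 CPM in members, against 34.2, 27.5, 20.8 and 37.5 CPM in low cells. It was not called, because library 3 went the other way: its 32 members held 0 Lta UMIs, which allows up to 24.0 CPM, above the 20.8 CPM of its low cells. Without library 3 the log2 ratio was 1.79 (1.55 to 2.03) and Lta was called. Drc1, chosen after its values were seen, behaved alike. Its level was 54.1 CPM in members and 11.5 CPM in low cells (2.23, 1.83 to 2.63), with 0 UMIs in the members of library 3.

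**Figure D3:**
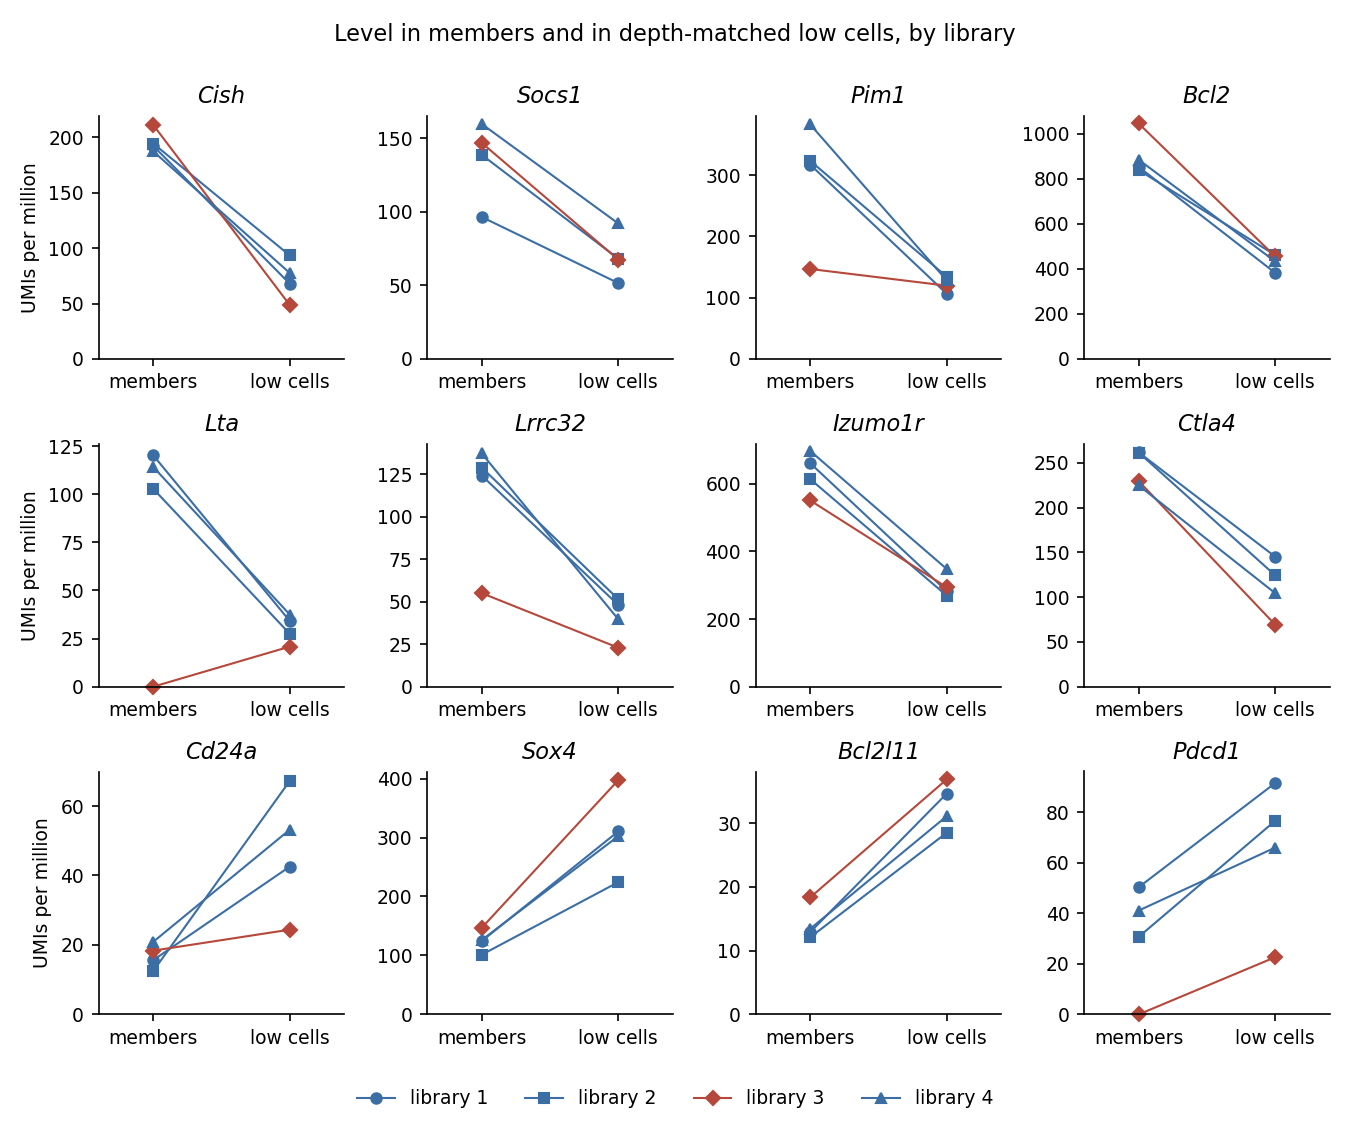
Level of 12 genes in members (left in each panel) and in depth-matched low cells (right), in CPM, with 1 line per library and library 3 in red. Cish, Socs1 and Bcl2 are higher in the members of all 4 libraries, Lta is at 0 in the members of library 3, and Cd24a, Sox4, Bcl2l11 and Pdcd1 are lower in members of all 4. In library 3 Pdcd1 is at 0 against 22.6 CPM, and a 0 there allows up to 24.0 CPM. Cd24a is at 18.4 against 24.4 CPM and Bcl2l11 at 18.4 against 36.9 CPM there, on few UMIs.

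None of the receptor's remaining chain or kinase genes tested, Il2rg, Jak1 and Jak3, was called. Il2rg (chromosome X, 101264378 to 101268255) was at 232 CPM in members and 255 CPM in low cells (-0.14, -0.25 to -0.03). Il2 itself was at 32.4 CPM in members and 33.8 CPM in low cells (-0.06, -0.36 to 0.24). Il7r, the receptor of IL-7, was at 56.3 and 53.2 CPM (0.08, -0.16 to 0.32), and Il15ra, at 3.89 and 4.64 CPM, was too scarce to be tested. Of 19 tested cytokine receptor, JAK and STAT genes, 3 were called higher and 0 lower, with a list median of 0.05. When cells were matched by library alone, 0 were called higher and 2 lower, with a median of -0.14. The 3 were Ifngr1, a chain of the interferon gamma receptor, at 259 against 152 CPM (0.76, 0.64 to 0.89), Il4ra at 89.3 against 54.5 CPM (0.71, 0.51 to 0.91), and Il6ra at 56.7 against 37.6 CPM (0.59, 0.35 to 0.83). Il6ra stood at -0.034 when cells were matched by library alone, and Ifngr1 and Il4ra lost their call. Stat5a (-0.07) and Jak3 (-0.56) were not called.

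Genes of Treg identity went both ways: 4 of 15 were called higher and 3 lower, with a median of 0.43. Within libraries 1 to 4 the list's median was lower, at 0.32, 0.24, 0.06 and 0.37. Lrrc32 encodes GARP, which holds latent TGF-beta on the Treg surface. It was at 124, 129, 55.1 and 137 CPM in the members of libraries 1 to 4, against 48.1, 51.6, 23.0 and 39.8 CPM in low cells (1.44, 1.23 to 1.66). Library 3 was the lowest in both kinds of cell. Izumo1r encodes folate receptor 4 and lies beside Gpr83 (chromosome 9, 14885814 to 14903949, minus strand). It was at 661, 614, 551 and 697 CPM in members, against 283, 269, 294 and 348 CPM in low cells (1.14, 1.05 to 1.23). Ctla4, the inhibitory receptor for CD80 and CD86, was at 262, 261, 230 and 225 CPM in members, against 145, 124, 69.2 and 104 CPM in low cells (1.02, 0.88 to 1.16). For both genes every member value lay above every low-cell value.

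Nt5e, the ectoenzyme CD73, was the fourth gene called higher (0.82). The TNF receptors Tnfrsf9 (4-1BB) and Tnfrsf1b (TNFR2) were lower in the members. Tnfrsf9 was at 208 CPM in members and 372 CPM in low cells (-0.84, -0.95 to -0.73), and Tnfrsf1b at 49.8 and 91.4 CPM (-0.87, -1.09 to -0.66). Sdc4 was the third gene called lower (-0.76). Tnfrsf18 (GITR, 0.43) and Tnfrsf4 (OX40, 0.43) were above 0 without reaching 1.5-fold. Foxp3, the factor that defines Treg cells, was at 16.5 CPM in members and 11.5 CPM in low cells (0.51, 0.06 to 0.96). It was not called, and in library 3 it stood at 9.18 against 11 CPM. Ikzf2, which encodes Helios, was at 916 and 1040 CPM (-0.18, -0.24 to -0.13), and Cd4 at 130 and 135 CPM (-0.06, -0.21 to 0.09).

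Of 10 tested genes of the immature thymocyte, 4 were called lower in the members and 0 higher, with a median of -0.48, and the same counts were found without library 3. Cd24a, a surface protein lost as thymocytes mature, was at 15.6, 12.5, 18.4 and 20.9 CPM in the members of libraries 1 to 4, against 42.5, 67.2, 24.4 and 53.2 CPM in low cells (-1.85, -2.20 to -1.49). Sox4, a transcription factor of early thymocytes, was at 124, 101, 147 and 126 CPM, against 310, 224, 397 and 302 CPM (-1.24, -1.37 to -1.10). For both genes the members of all libraries lay below all low-cell values. In library 3 the members' Cd24a level rests on few UMIs. Itm2a (-0.71) and Tcf7 (-0.68) were the others called lower. Rag2 had 0 UMIs in the members and 49 in all low cells. Of the late maturation and egress list, 3 of 23 were called higher, 1 lower, with a median of 0.21, which was -0.22 when cells were matched by library alone. Klf2, which induces egress receptors, was at 1616 CPM in members and 992 CPM in low cells (0.70, 0.66 to 0.75). Itgb7, an integrin chain, was at 388 and 249 CPM (0.64, 0.54 to 0.74). Ly6a was called lower (-0.68). Of 10 naive CD4 T cell genes, 4 were called lower (Dapl1, Tcf7, Actn1 and Cd40lg) and 1 higher. Their median was -0.17, or 0.03 without library 3.

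Of 11 tested BCL2 family genes, 1 was called higher and 2 lower, with a median of -0.32, or -0.046 when cells were matched by library alone. Within libraries 1 to 4 the list's median was -0.39, -0.10, 0.02 and -0.28. Besides Bcl2, called higher, Bcl2l11, which encodes the pro-apoptotic BIM, was at 12.9, 12.1, 18.4 and 13.4 CPM in members, against 34.6, 28.5, 36.9 and 31.1 CPM in low cells (-1.27, -1.68 to -0.87). Members of all libraries lay below all low cells, but the members' level in library 3 rests on few UMIs. Bid, also pro-apoptotic, was lower (-0.83). The near-identical Bcl2a1b (-0.94) and Bcl2a1d (-1.12), whose reads cannot be told apart with certainty, were not called with library 3 and were called lower without it. Of costimulatory receptors, 5 of 15 were called lower and 1, Ctla4, higher. Pdcd1 (PD-1) was at 38.0 against 76.9 CPM (-1.02, -1.27 to -0.76), and Cd160 at 8.70 against 29.7 CPM (-1.76, -2.24 to -1.28). In library 3 Pdcd1 stood at 0 against 22.6 CPM, and a 0 there allows up to 24.0 CPM. Btla (-0.63), Tnfrsf9 and Tnfrsf1b were the others.

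TCR and NF-kB response genes outside the rule had 1 of 23 called higher and 2 lower, with a median of -0.16. Jun, a subunit of AP-1, was higher, at 171 against 83.4 CPM (1.04, 0.88 to 1.20). It was highest in library 3, at 404 CPM in members and 200 CPM in low cells. Nfkb2 (-0.69) and Nfkbie (-0.68) were lower. Members were held to the activation limit and low cells were not. With low cells under the same limit, 1 gene of the list was called higher and 0 lower, the median was 0.013, and Nfkb2 (-0.47) and Nfkbie (-0.51) were not called. MYC targets and ribosome biogenesis had 4 of 18 called lower (Nolc1, Gnl3, Apex1 and Srm) and 0 higher, with a median of -0.54. Matched by library alone, that median was 0.014 and Srm stood at 0.011. With low cells under the activation limit, Gnl3 and Srm lost their call. Among cells under that limit, the list's median against cells with 0 selection-set UMIs was -0.24 with 5 to 6 and -0.41 with 7 or more. Of interferon response, glycolysis, S phase and effector Treg genes, 0 of 24, 0 of 14, 0 of 16 and 0 of 8 were called, and 0 of 3 of G2 and M phase. Matched by library alone, 13 of 17 S phase genes were called higher.

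Besides the genes whose levels are given above, the genes called with the highest ratios were Grifin, a galectin-related gene, at 46.5 CPM in members and 11.6 CPM in low cells (2.0, 1.60 to 2.39), and Gata1, the erythroid transcription factor, at 31.5 and 9.61 CPM (1.70, 1.29 to 2.12). In library 3 Gata1 stood at 9.18 against 8.09 CPM, on few UMIs. Mcub, a subunit of the mitochondrial calcium uniporter, was at 90.6 and 32.2 CPM (1.49). Rgs1, which dampens G protein receptor signals, was at 419 and 153 CPM (1.45, 1.34 to 1.57). Coro2a (1.39), Sh3bp5 (1.29), Dbp (1.27) and Tmem64 (1.26) followed. The genes with the smallest ratios were Tmem121, at 8.89 against 34.5 CPM (-1.95, -2.42 to -1.48), and Actg2, a smooth muscle actin, at 29.6 against 101 CPM (-1.77, -2.03 to -1.50). Hivep3 (-1.67), A530021J07Rik (-1.51), Marcksl1 (-1.46), Grwd1 (-1.39), Cldn10 (-1.38), Cd40lg (-1.33) and Ehd3 (-1.27) followed. Of these, Grwd1 and Cd40lg rest on few UMIs and lost their call under 12 and 8 of 21 other settings. Tmem121, Actg2 and Cd40lg stood at 0 in the members of library 3, as did Dapl1 and Bid. A 0 there allows up to 24.0 CPM, above the level of each in the low cells of library 3. Hivep3, Grwd1, Cldn10 and Ehd3 stood at 9.18 CPM in those members.

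Markers of other cells were present in part. The myeloid and dendritic list had a UMI in 54.1% of members and 39.8% of low cells, through Cst3 (46.8% of members) and Cd74 (16.5%), and summed to 188 and 208 CPM. The NK, NKT and gamma delta T list had a UMI in 28.5% of members and 11.5% of low cells, with Ccl5 in 9.34% of members, and summed to 228 and 149 CPM. Members were the deeper cells, and the part of these markers in the results was not tested. Lyz2, Itgax, Flt3, Csf1r, Klrb1c, Klrk1, Klrd1 and Zbtb16 had 0 UMIs in the members. Nkg7, a cytotoxic granule gene, was seen in 23.2% of members. Its level was 142 CPM in members against 218 CPM in depth-matched low cells (-0.62), but the log2 ratio was 0.42 when cells were matched by library alone. Cd8b1 was seen in 10.2% of members. The immature thymocyte list summed to 1116 CPM in members and 2398 CPM in low cells, and the B cell list to 20.6 and 11.7 CPM. The erythroid list, of hemoglobin genes and Alas2, summed to 1.73 CPM in members and 22.2 CPM in low cells. In library 3 it had a UMI in 15.6% of members and 13.6% of low cells, and elsewhere in at most 0.667% of either.

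The lists were also followed along the number of selection-set UMIs in cells under the activation-set limit, from 0 (2691 cells) through 1 (1317), 2 (789), 3 to 4 (894), 5 to 6 (510) to 7 or more (604). Relative to cells with 0, the median log2 ratio of the IL-2 and STAT5 list was 0.09, 0.34, 0.39, 0.55 and 0.70 in that order. That of the immature list was -0.24, -0.42, -0.54, -0.68 and -0.77. Cish reached 87.8, 113, 148, 199 and 208 CPM, and Pim1 138, 162, 225, 289 and 409 CPM. Lrrc32 reached 40.4, 67.2, 90.2, 116 and 165 CPM, and Sox4 fell through 303, 237, 167, 129 and 107 CPM. These CPM are the bins' own levels, and the bins differ in depth and in their mix of libraries. Only the log2 ratios are matched. Matched cells with 0 had 374 CPM of Sox4 beside the cells with 1 UMI, and 356 CPM beside those with 2. Of 24 named genes outside the rule that were called higher in members, the log2 ratio rose at every step for 20, and of 29 called lower it fell at every step for 12. These genes had been called between the ends of this same range of cells, so the steps are a description. The share of all tested genes that moved 1 way at every step was not counted. Socs3 was uneven, at 9.33, 10.8, 8.72, 23.9 and 18.0 CPM, and Coro2a stood at 58.5 CPM with 2 UMIs and 56.8 CPM with 3 to 4. Interferon genes stayed between -0.08 and 0.01.

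**Figure D4:**
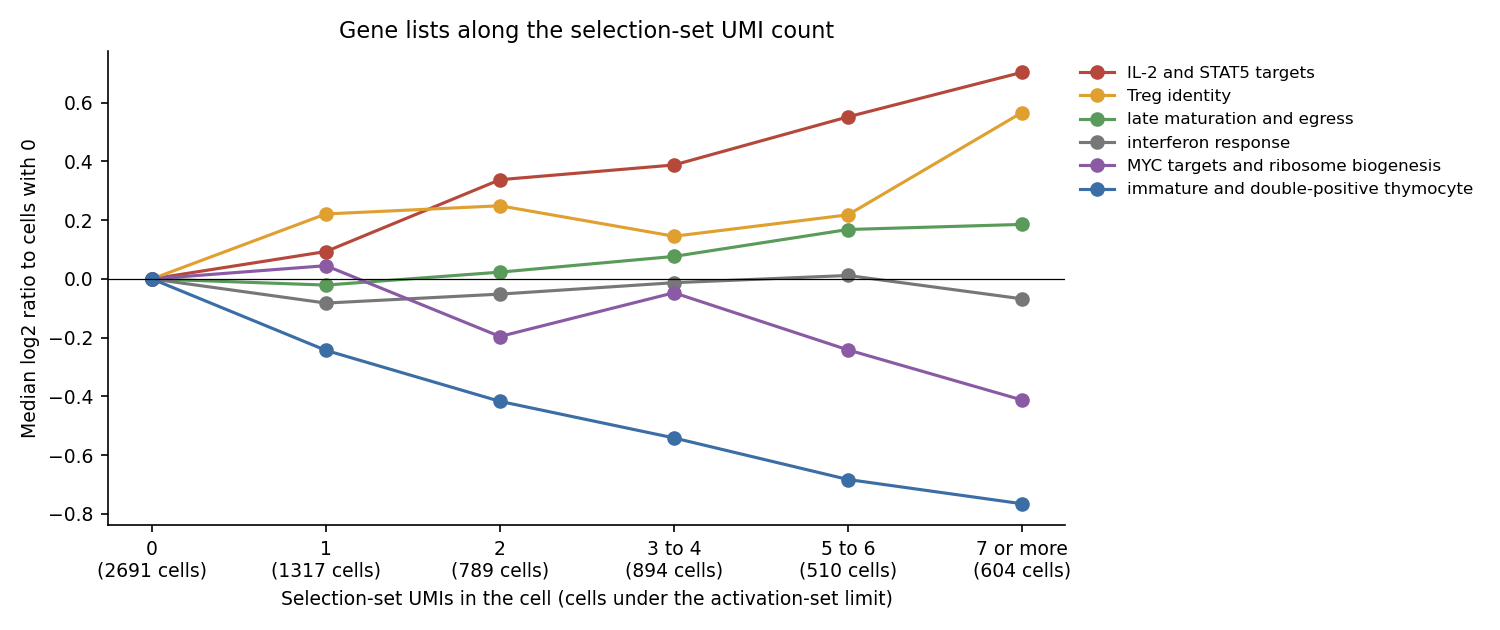
Median log2 ratio of 6 gene lists to cells with 0 selection-set UMIs, by number of selection-set UMIs, in cells under the activation-set limit. The IL-2 and STAT5 list climbs to 0.70 and the immature list goes down to -0.77, while the interferon list stays near 0.

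Cells that passed the selection limit but not the activation limit numbered 103, or 36, 49, 1 and 17 in libraries 1 to 4, with a median of 6936 UMIs. They were deep, so matching left 338 members and 52 of these cells, and the direction could be checked in library 2 alone. Of 1699 genes, 90 were called higher in members (5.3%) and 128 lower (7.53%), and without library 2 these were 13 and 16. Of 13 TCR and NF-kB response genes outside the rule, 11 were called lower and 0 higher, with a median of -1.54. Those are genes of the same response that the activation limit acts on. Nr4a1, an immediate early gene of TCR signalling, was at 63.2 CPM in members against 341 CPM (-2.43), and Bcl2l1, which encodes BCL-XL, at 52.5 against 340 CPM (-2.69). Of 10 MYC targets, 9 were called lower (-0.85). Of 17 egress genes, 4 were called higher, 1, Gimap5, lower (-0.75) and 12 neither way. S1pr4 was at 189 against 57.1 CPM (1.72) and S1pr1 at 153 against 58.6 CPM (1.38). Bcl2 was at 706 against 328 CPM (1.10). Cish (-0.52, -0.87 to -0.16) and Pim1 (-0.48, -0.76 to -0.20) were not called, but their intervals lay below 0. Lta (0.39, -0.23 to 1.02) was not called either. Of 12 tested IL-2 and STAT5 targets, 2 were called higher and 2 lower, with a median of 0.07. Of 9 tested Treg identity genes, 0 were called higher and 4 lower, with a median of -0.54. The 4 were Tnfrsf9 (-1.31), Tnfrsf4 (-1.14), Tnfrsf18 (-0.90) and Lrrc32 (-0.64). With members weighted to the depth of these cells, chosen after seeing the data, 94 of them and 1013 members were used. Then 17 of 20 TCR and NF-kB genes were called lower and 1 higher.

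The members themselves differed by which selection gene they carried. The rule couples these genes, since a member without Gpr83 must reach 5 UMIs from the other 4. The 505 members with 3 or more Gpr83 UMIs were at 337 CPM of Il2ra and 98.3 CPM of Socs2, and the 219 members without Gpr83 at 477 and 162 CPM. Of 1734 genes, 12 were called higher in the Gpr83-rich members (0.692%) and 19 lower (1.1%). Higher were Cd7 (0.81), Pecam1 (0.74), Klf3 (0.70), S1pr1 (0.68), Izumo1r (0.61) and Foxo1 (0.60), which include egress genes: 3 of 18 of that list were called higher. Lower were Nkg7, at 67.4 against 227 CPM (-1.75, -2.09 to -1.41), Lad1 (-1.62), the tetraspanin Cd82 (-1.58) and Tnfrsf9, at 138 against 380 CPM (-1.46, -1.70 to -1.21). Traf1 (-1.0), Fas (-0.87) and Nfkbia (-0.66) were lower too.

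The 859 members with an Il2ra UMI were set against 255 without. Of 2690 genes, 44 were called higher (1.64%) and 9 lower (0.335%). Lta was at 136 CPM with Il2ra and 57.7 CPM without (1.24, 0.83 to 1.65), Sh3bp5 at 96.1 and 48.8 CPM (0.98), Myc at 120 and 72.0 CPM (0.73) and Pim1 at 391 and 255 CPM (0.62). Of 10 tested MYC target and ribosome biogenesis genes, 1, Nop56, was called higher and 0 lower, with a median of 0.16. Rhof (-0.71), Pecam1 (-0.69), Klf3 (-0.66) and Drc1 (-0.64) were lower. The 386 members with a Socs2 UMI gave the fewest calls, against the 728 without: of 3107 genes, 7 were called higher (0.225%) and 4 lower (0.129%). Pim1 was at 444 CPM with Socs2 and 276 CPM without (0.68, 0.55 to 0.82), Myb at 56.7 and 28.3 CPM (0.99), Batf at 74.2 and 38.9 CPM (0.93) and Nrp1, the neuropilin of thymus-derived Treg cells, at 91.7 and 51.6 CPM (0.83, 0.52 to 1.13). Cish (0.39) and Bcl2 (0.25) had intervals above 0 and were not called, and Ctla4 (0.02) did not differ beyond its interval. Library 3 had too few cells for these comparisons.

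**Figure D5:**
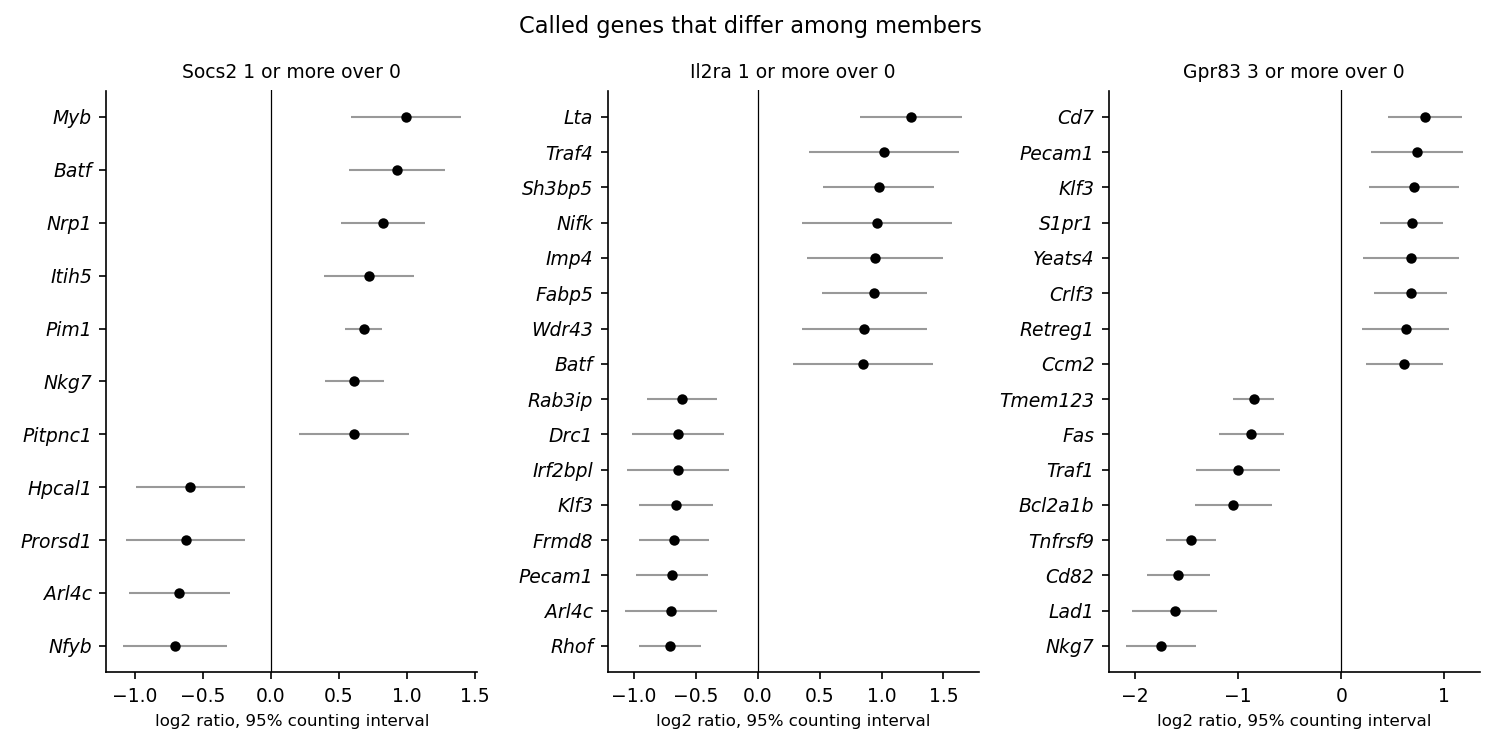
Called genes, up to 8 each way, in 3 comparisons among members: with against without a Socs2 UMI, with against without an Il2ra UMI, and with 3 or more Gpr83 UMIs against none. Points are log2 ratios and bars 95% counting intervals; Pim1 is higher with Socs2 at 0.68, and Nkg7 is lowest with Gpr83 at -1.75.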

How the data were processed

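Droplet single-cell RNA libraries of Treg cells sorted from the thymus (4 samples) were analysed. The deposited count table holds UMI counts for 27998 genes in 8273 cells (795 to 32737 UMIs per cell). The submitters' processing notes name the mm10 build, R 3.4.1, Cell Ranger 2.0.2 and CASAVA 2.20. Cell filters are not given in the sources used here. G1 cells come from another table: the log2 values that the authors deposited cover 9571 genes in 7231 cells; each value equalled the log2 of count over 1 factor per cell, plus 1 (largest relative deviation 1.1e-14). They were used to define G1 cells and as an alternative. Symbols came from GENCODE M21 (GRCm38) for 27645 identifiers, and 353 had none.

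Expected UMIs of a gene were the members' UMIs times the CPM of low cells, by library and 0.5 log2 bin of depth. Bins with under 10 low cells were dropped, with 23 members. The 12 rule genes were left out of totals. Ratios carry 0.5 added UMIs and an approximate 95% counting interval. A direction was asked of libraries with 20 or more cells on each side. No p-value was computed and no doublet caller was run; leaving out the deepest 5% of cells is an alternative. The ratio was also run on simulated counts with known changes, drawn for each cell from its library's low-cell profile at the cell's depth. Those counts held counting error only, with no further spread between cells and no change of profile with depth. They therefore say nothing of how the ratio deals with either.

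The members and the 21 lists were chosen with earlier results of these data known. Named genes are up to 12 called each way, up to 4 called per list, the rule genes and a set of cytokine and T cell genes; others were chosen after their values were seen. Some genes that the rule names are not reported here. Alternatives changed matching, limits, scaling, filters and libraries. Promoters and start sites are from RefSeq (GRCm38.p6). Python 3.11.15, numpy 2.4.6, pandas 2.3.3, scipy 1.17.1 and matplotlib 3.10.9 were used.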

Additional observations from a re-analysis of the deposited data

Results flagged for a closer look

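The G1 restriction leaves out cells that meet both UMI limits: 151 cells outside the G1 table had 5 or more selection-set UMIs and fewer than 4 of the activation set, which none of the comparisons use. They make up 14.5% of the 1042 cells outside that table. They were deep, with a median of 10096 UMIs against 4498 in the members. Their G2 and M phase list summed to 9847 CPM, against 589 CPM in the members, and Mki67 stood at 289 against 9.01 CPM. Their levels were 42.3 CPM of Socs2, 211 CPM of Gpr83 and 119 CPM of Cish, against 118, 498 and 185 CPM in the members.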

How the results depend on the processing

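Over 21 alternatives, 1205 values of named genes lay within the gene's interval of the main comparison, 94 lay outside it and 3 reversed. A reversal was counted for called genes only, so values of uncalled genes that changed sign are among the 1205 or the 94. All 3 reversals came from matching cells by library alone, without depth: Il6ra -0.034, Srm 0.011 and Nkg7 0.42. Among 315 medians of the 15 lists with 4 or more tested genes, 32 had the other sign. Matching by library alone gave 8 of these, with the egress list at -0.22, the MYC list at 0.014, the S phase list at 0.75 and the interferon list at -0.40; the other 24 were at most 0.11 from 0. Of 5 lists with 1 to 3 tested genes, 3 changed sign under that matching, the NK list to 0.23 and the G2 and M phase list to 0.53; the cause was not tested. Genes called lower in members were 255 with 7 or more selection-set UMIs and 302 with at least 50 UMIs asked of a gene, against 148. Against cells over the activation limit, 90 higher and 128 lower became 323 and 354 (library alone), 219 and 281 (members weighted to the depth of those cells), 252 and 472 (at least 50 UMIs) and 13 and 16 without library 2. That comparison rests on library 2. Among members, the calls by Socs2, Il2ra and Gpr83 were 11, 53 and 31, and 154, 272 and 265 with at least 50 UMIs asked of a gene. Matched by library alone, the Il2ra and Gpr83 calls were 138 and 116, and without library 2 the Socs2 calls were 17. Thinned to 1886 UMIs, the share of members was 4.46% over all cells and 5.74, 6.53, 0.675 and 4.33% in libraries 1 to 4. Leaving out a library gave 95 to 154 genes called higher and 126 to 174 lower; of the 122 and 148, 74 and 85 were shared without library 2, 80 and 57 with low cells of 0 selection-set UMIs, and 59 and 43 with matching by library alone. Of 53 named called genes, 21 kept their call in all 21 settings; the calls of Grwd1, Il6ra, Cd74, Socs3, Cd40lg, Nfkb2 and Srm held in 9 to 13. Members and low cells were compared within each library, and no test was run. Samples could not be paired, because the libraries are not tied to them. Library 3, with 32 members and 125109 UMIs in them, limits what can be said of scarce genes there.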
